A study of Mus musculus with 16 samples.

Results

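The livers of mice make fatty acids from carbohydrate through a short series of enzymes, and the chromatin around 10 genes of this pathway was examined by DNase-seq, in which the enzyme DNase I cuts accessible DNA and the released fragments are sequenced. The genes were Srebf1, Mlxipl, Thrsp, Acly, Me1, Acaca, Fasn, Elovl6, Scd1 and Pnpla3. Each gene was taken with 20 kb on either side in the mouse assembly mm9, and every DNase hypersensitive site (DHS, a peak of cut fragments) of 4 deposited lists that overlapped this window was kept. DHS of different lists that shared at least 1 bp were joined into a region. This gave 88 regions of 51482 in all lists, and all 10 genes had regions, from 5 at Pnpla3 to 16 at Elovl6.

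Nuclei came from livers of male and female mice of 2 inbred strains, the laboratory strain C57BL/6J (B6) and the wild-derived CAST/EiJ (CAST), 8 weeks of age and without a treatment named in the labels. Every group had the same digestion, 32 units of DNase I, and 4 libraries were kept for each sex and strain, 16 libraries in total. A further library of each group had been sequenced and was left out by the authors for its quality. They merged the 4 libraries of a group before peaks were called, so each group is 1 list with no replicate error. No test between groups was therefore possible, and every difference below compares 4 pooled lists. The lists held 38751 and 26271 DHS for B6 males and females and 39562 and 24888 for CAST, and the median number of fragments piled up at a DHS summit was 79.0, 61.0, 78.0 and 47 in the same order. The male lists thus held more DHS, with more fragments at each. A DHS over a start site was present in all 4 lists at 5 of 7 hepatocyte marker genes (Alb, Apob, Tat, Hnf4a and Cps1), at 0 of 3 Kupffer cell markers, 0 of 2 bile duct markers, 0 of 2 stellate cell markers, 0 of 4 adipocyte markers and 0 of 4 endothelial markers, although male B6 had one at 3 of the endothelial markers and female B6 at 1. In whole liver, a DHS in fewer cells and a weaker DHS in each cell cannot be told apart.

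Lipogenesis starts from citrate. ATP citrate lyase (Acly) splits it to cytosolic acetyl-CoA, acetyl-CoA carboxylase 1 (Acaca) carboxylates this to malonyl-CoA, and fatty acid synthase (Fasn) builds palmitate with NADPH, part of which malic enzyme (Me1) supplies. Elovl6 elongates palmitate and Scd1 introduces a double bond, giving oleate. The program is switched on after feeding by SREBP-1 (Srebf1), which acts downstream of insulin and binds sterol regulatory elements, and by ChREBP (Mlxipl), which responds to glucose metabolites and binds paired E-boxes. Thrsp (Spot 14) is a thyroid hormone and carbohydrate responsive regulator of the pathway, and Pnpla3 encodes a lipid droplet protein that is itself a target of SREBP-1.

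The following stretches of mm9 hold the letters of a sterol regulatory element, TCACNCCAC, directly before a start site of Mlxipl and Acaca and in the DHS at the 5′ end of Srebf1. They are shown because SREBP-1 is known to act on its targets through this element, and its binding was not measured here. Each is read 5′ to 3′ along the strand of its gene. Capitals mark matches to the sterol element, to the E-box CACGTG, to the NF-Y box CCAAT (or ATTGG, its reverse complement) or, in Acaca, to the STAT5 motif TTCNNNGAA. In Mlxipl the sterol element began 136 bases before the 5′ end of the gene. The Srebf1 stretch surrounds the summit of the DHS at the 5′ end of the gene and holds a sterol element, an E-box and 2 NF-Y boxes. The Acaca stretch lies before an internal start site, with a sterol element 98 bases and an E-box 157 bases before it, in and beside a run of CA repeats. No DHS of any list covered this start site. The letters are those of the reference, which is a B6 genome, and CAST alleles were not analysed here.
Mlxipl, 250 bases before the 5′ end, chr5:135582511-135582760, plus strand: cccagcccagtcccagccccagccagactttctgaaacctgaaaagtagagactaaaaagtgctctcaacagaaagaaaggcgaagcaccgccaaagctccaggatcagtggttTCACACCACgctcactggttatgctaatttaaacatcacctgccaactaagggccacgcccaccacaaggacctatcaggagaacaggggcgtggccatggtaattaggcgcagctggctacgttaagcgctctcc
Srebf1, 300 bases around the summit at −0.22 kb, chr11:60036153-60036452, minus strand: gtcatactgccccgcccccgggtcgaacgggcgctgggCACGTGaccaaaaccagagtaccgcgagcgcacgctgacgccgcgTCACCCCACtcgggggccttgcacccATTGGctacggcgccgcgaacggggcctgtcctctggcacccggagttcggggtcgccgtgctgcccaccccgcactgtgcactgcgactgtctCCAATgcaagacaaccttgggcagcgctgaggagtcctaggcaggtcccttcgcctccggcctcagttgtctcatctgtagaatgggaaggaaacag
Acaca, 250 bases before the internal start site, chr11:83986374-83986623, plus strand: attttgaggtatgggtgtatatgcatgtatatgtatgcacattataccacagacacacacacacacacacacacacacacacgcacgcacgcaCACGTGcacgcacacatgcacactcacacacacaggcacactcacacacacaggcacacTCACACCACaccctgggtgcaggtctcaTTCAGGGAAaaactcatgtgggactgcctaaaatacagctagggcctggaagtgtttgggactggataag

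The next 5 stretches are 300 bases around summits. The first 2 are from the most enriched DHS of the Pnpla3 and Scd1 windows, and the other 3 from DHS that were stronger in CAST than in B6 or that were found in CAST alone. Capitals mark NF-Y boxes and, in the last, an E-box. None of the 8 motifs searched matched the Pnpla3 stretch.
Pnpla3 at −11.6 kb, chr15:83986523-83986822, plus strand: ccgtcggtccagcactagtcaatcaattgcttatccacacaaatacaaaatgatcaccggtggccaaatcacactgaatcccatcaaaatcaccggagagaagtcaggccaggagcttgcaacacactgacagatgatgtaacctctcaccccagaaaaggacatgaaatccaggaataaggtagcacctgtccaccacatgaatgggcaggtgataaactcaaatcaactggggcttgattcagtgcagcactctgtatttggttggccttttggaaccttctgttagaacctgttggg
Scd1 at +18.96 kb, chr19:44463092-44463391, minus strand: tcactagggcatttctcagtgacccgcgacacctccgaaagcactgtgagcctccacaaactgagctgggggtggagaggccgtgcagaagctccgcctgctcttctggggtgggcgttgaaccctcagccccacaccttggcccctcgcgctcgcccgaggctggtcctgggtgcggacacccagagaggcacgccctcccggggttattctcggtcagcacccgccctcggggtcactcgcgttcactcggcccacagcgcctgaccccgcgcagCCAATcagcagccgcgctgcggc
Elovl6 at +26.2 kb, chr3:129261396-129261695, plus strand: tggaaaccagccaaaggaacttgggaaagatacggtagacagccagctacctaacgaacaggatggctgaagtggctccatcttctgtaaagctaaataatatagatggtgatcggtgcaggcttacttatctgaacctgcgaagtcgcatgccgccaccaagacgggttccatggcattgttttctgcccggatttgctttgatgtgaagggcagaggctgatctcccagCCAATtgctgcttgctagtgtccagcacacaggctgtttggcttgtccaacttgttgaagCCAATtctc
Acly at +37.1 kb, chr11:100352060-100352359, minus strand: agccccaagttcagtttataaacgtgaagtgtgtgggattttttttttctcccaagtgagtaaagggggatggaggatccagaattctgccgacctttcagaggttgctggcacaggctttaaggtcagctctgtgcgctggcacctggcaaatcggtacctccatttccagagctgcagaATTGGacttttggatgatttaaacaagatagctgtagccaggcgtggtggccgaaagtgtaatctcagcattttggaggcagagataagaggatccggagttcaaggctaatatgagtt
Elovl6 at +97.1 kb, chr3:129332282-129332581, plus strand: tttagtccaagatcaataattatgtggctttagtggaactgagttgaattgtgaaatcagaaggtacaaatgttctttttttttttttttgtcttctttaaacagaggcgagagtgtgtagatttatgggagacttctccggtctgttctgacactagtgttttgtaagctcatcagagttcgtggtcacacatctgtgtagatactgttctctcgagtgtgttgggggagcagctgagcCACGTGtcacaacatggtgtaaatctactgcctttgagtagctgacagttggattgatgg

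The lipogenesis genes had a high share of DHS common to both sexes and strains. Of the 88 regions, 47 (53.4%, Wilson 95% interval 43.1% to 63.5%) were in all 4 lists, against 35.6% of all regions and 38.1% of the regions near other protein-coding genes. The share was similar, at 50.0% (interval 42.0% to 58.0%), for 148 regions near 24 further genes of lipid synthesis, which are described below. A high share was thus not particular to the 10 genes. Intervals here and below cover counting error only, since fragments were not tagged as single molecules and neighbouring regions are not independent. Only 20 regions (22.7%) were in a single list, against 35.2% of all regions. By sex, 5 regions (5.68%) were found in males of both strains but in neither female list, against 9.38% of all regions, and 0 in females of both strains but in neither male list, which allows a share of up to 3.41% (0.0622% of all regions). By strain, 7 regions (7.95%, interval 3.91% to 15.5%) were found in both sexes of CAST but in neither sex of B6, against 3.62% of all regions. In both sexes of B6 but in neither sex of CAST there were 0, which allows up to 3.41%, against 3.32% of all regions. A start site of a coding transcript lay under a DHS of all 4 lists at each of the 10 genes, compared with 40.3% of 22232 protein-coding genes.

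By position, of 13 regions over an annotated start site of the genes, 12 were in all 4 lists. The exception was the upstream start site of Acaca, which it shares with the divergent gene Tada2a and which had no DHS in female B6. Of 15 regions near the start sites of other genes, 10 were in all 4 lists. Of the other 60 regions, 25 (41.7%) were in all 4 lists, and 13 of these 60 lay within 2.5 kb of a start site of the same gene without covering it. Counting the start sites of any gene, 21 of 23 regions over one were in all 4 lists (91.3%, against 76.7% of all such regions), 5 of 18 within 2.5 kb of one (27.8%, against 25.2%), and 21 of 47 farther away (44.7%, against 24.0%). The order of start sites above other DHS was thus also that of all regions. Strength is given below as fold enrichment, the number of fragments at the summit over the local background, as the peak caller wrote it, and as the percentile of the −log10 q-value in the list. The median percentile of the regions over start sites was 81.8 and 75.4 in males and females of B6 against 81.7 and 68.1 in CAST. Positions are in kb from the 5′ end of the gene, negative upstream.

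Among the regulators, Srebf1 (chr11:60012591-60036083, minus strand) had 13 regions, 5 of them in all 4 lists and another 6 found in 1 list each. Each of the 3 DHS over start sites was in every list. The strongest of them, at +2.11 kb over a start site of coding transcripts, had a fold enrichment of 5.90 (male) and 4.15 (female) in B6 and 5.79 (male) and 5.25 (female) in CAST. The DHS at the 5′ end (−0.22 kb), whose sequence with the sterol element is shown above, had values of 4.01, 3.46, 3.92 and 3.70 in the same order, so that the 4 lists lay close together. The intronic one at +12.1 kb had 4.77, 3.98, 4.90 and 4.64. The DHS that differed most was upstream, at −2.09 kb (chr11:60037928-60038651), with 2.53 and 2.80 in B6 males and females, and 5.2 and 3.76 in those of CAST. Both CAST lists were above both B6 lists there. At −7.56 kb, near a start site of Tom1l2, a DHS was in the CAST lists alone, with 3.14 in males and 2.63 in females.

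Mlxipl (chr5:135582761-135614254, plus strand) had 7 regions and all 7 were in the 4 lists. By fold enrichment the DHS over its start sites was one of the weakest of the promoters, at 2.53, 1.89, 2.26 and 2.72 in males and females of B6 and then of CAST. Its summits held 155, 64, 126 and 60 fragments, more than the Scd1 start site in all lists but female B6. The low rank is thus one of fold enrichment. Strong DHS flanked it. The one at −5.80 kb (chr5:135576547-135577352, intergenic) had 12.5, 9.36, 12.7 and 10.4, with percentiles of 98.4, 96.3, 97.7 and 96.2. The one in the first part of the gene, at +1.39 kb, had 8.41, 6.74, 8.95 and 6.85. A further strong DHS at +42.5 kb lay by the start site of the neighbour Tbl2, with 11.9, 8.83, 10.8 and 8.68. In each of these 3, males were above females in both strains before the lists were brought to a common scale, and the centred ratios of male to female lay between −0.10 and 0.12 on the log2 scale. By summit fragments the centred ratios lay between 0.09 and 0.43, with males higher in both strains.

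Thrsp (chr7:104561448-104566240, minus strand) is the shortest of the genes, and its 6 regions lay close together. Its start site had a DHS with a fold enrichment of 4.68 and 3.39 in males and females of B6 against 3.79 and 2.96 in CAST. The summits at −1.12 kb had 3.69, 2.5, 3.75 and 4.33, and those at −6.07 kb had 4.96, 3.53, 6.20 and 4.43. Fragment numbers at these summits gave another picture of the strains. At −6.07 kb B6 males had 194 fragments and CAST males 384, and females had 81 and 115. At −1.12 kb B6 males had 199 and CAST males 322, and females had 77 and 152. The weak DHS at −3.21 and +5.32 kb were in the CAST lists alone, with fold enrichments from 1.57 to 2.36.

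For the supply of acetyl-CoA and NADPH, Acly (chr11:100337667-100389314, minus strand) had 9 regions, 6 of them in all 4 lists. The DHS over its start sites was broad, 1404 bp in male B6, with a fold enrichment of 7.08 (male) and 5.14 (female) in B6 and 5.97 (male) and 4.93 (female) in CAST. A stronger DHS at −17.6 kb near the start site of Ttc25 had 9.53, 5.90, 10.1 and 7.53. Other DHS lay in the introns of Acly, and the strongest of them by mean percentile, at +9.61 kb, had 3.78, 3.35, 4.47 and 4.26. At +37.1 kb (chr11:100351973-100352555) the values were 3.16, 3.01, 8.13 and 4.85, both CAST lists above both B6 lists. At +41.7 kb a DHS was in the CAST lists alone, with 4.24 in males and 5.35 in females, and at +12.7 kb in the male lists alone, with 3.57 in B6 and 2.44 in CAST.

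Me1 (chr9:86474970-86589947, minus strand) was the gene whose most enriched DHS reached the lowest value, 4.91. It had 7 regions, of which 3 were in all 4 lists, and female CAST had 3 regions where the other lists had 6 or 7. The start site had a fold enrichment of 3.63 and 3.47 in B6 males and females, and 3.73 and 3.94 in those of CAST, so the 4 values differed little. The strongest DHS away from start sites, at −11.6 kb, had 4.91, 3.02, 4.04 and 3.36. The one at +124.6 kb, by the start sites of the neighbours Pgm3 and Rwdd2a, had 3.65, 3.32, 4.22 and 4.36. An intronic DHS at +48.1 kb was in the male lists alone, with 3.07 in B6 and 3.84 in CAST.

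Of the genes of fatty acid synthesis, Acaca (chr11:83943174-84215153, plus strand) is the longest and had 12 regions, 4 of them in all 4 lists and another 5 found in 1 list each. The gene is known for alternative promoters. Its strongest DHS was at an internal pair of start sites at +49.9 kb (chr11:83992637-83994111), with a fold enrichment of 8.94 and 6.34 in males and females of B6 against 7.95 and 6.88 in CAST. The upstream start site had 3.55 in B6 males, and 4.08 and 2.91 in CAST males and females. Next to the internal start site with the sterol element and E-box shown above, a DHS at +43.7 kb was in male CAST alone (3.64, 78 fragments). The strongest DHS that covered no start site of Acaca and was not near one of another gene, at +68.5 kb in an intron, had 6.23, 4.09, 7.13 and 5.86. At +223.8 kb a weak DHS was in the male lists alone, with 2.73 in B6 and 2.77 in CAST.

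Fasn (chr11:120667254-120685492, minus strand) had 6 regions, 4 of them in all 4 lists, and its promoter was among the strongest. The DHS at −0.264 kb had a fold enrichment of 8.45 (male) and 6.32 (female) in B6 and 7.96 (male) and 7.03 (female) in CAST, with percentiles of 96.8, 94.8, 93.9 and 90.6. The summits of the 4 lists lay within 50 bp. At −6.83 kb, by a start site of Gm11773 in the neighbour Ccdc57, the values were 5.18, 4.39, 5.69 and 5.19. At +23.8 kb, beyond the 3′ end, the values were 4.59, 4.01, 5.55 and 3.72. A DHS at −8.04 kb in an intron of Ccdc57 was in the CAST lists alone, with 3.0 in males and 2.43 in females.

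**Figure D1:**
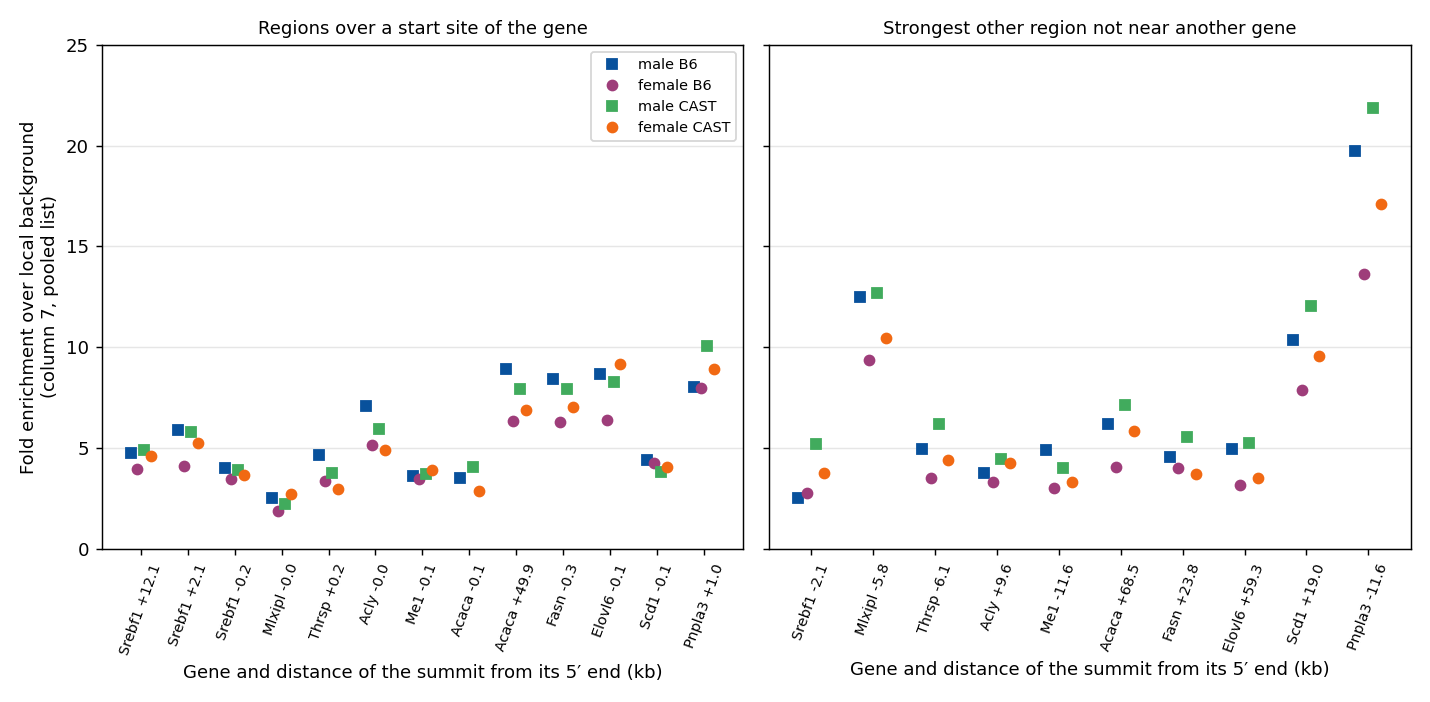
Fold enrichment over the local background (y axis) in the 4 pooled lists, for the 13 regions over a start site of the genes (left) and for the strongest other region of each window that is not near a start site of another gene (right), with the distance of the summit from the 5′ end in kb beside each gene. Points are single values of pooled lists and have no error bars. The Pnpla3 DHS at −11.6 kb stands highest, from 13.6 to 21.9, and the Mlxipl and Scd1 DHS at −5.8 and +18.96 kb lie above the start sites of their own genes in every list.

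Elovl6 (chr3:129235304-129341413, plus strand) had the most regions, 16, with 5 in all 4 lists. Its start site had a strong DHS with a fold enrichment of 8.69 and 6.39 in B6 males and females, and 8.31 and 9.19 in those of CAST, and the 4 summits lay within 20 bp. The gene body carried a row of intronic DHS, some of them with different values in the strains. The strongest by mean percentile, at +59.3 kb, had 4.97, 3.21, 5.28 and 3.55. At +26.2 kb (chr3:129261184-129261921) the values were 3.31, 2.67, 8.92 and 5.51, from 69, 42, 213 and 55 fragments. This DHS was at percentile 45.3 in male B6 and 88.4 in male CAST. At +97.1 kb (chr3:129332082-129332662) a DHS was in the CAST lists alone, with 7.43 and 118 fragments in males and 4.14 and 36 fragments in females, and in males it was the most enriched of the 7 regions found in both sexes of CAST but not in B6. A weaker one of the same kind lay at +38.6 kb, with 3.21 and 2.85. At +31.5 kb (2.91 in B6, 2.43 in CAST) and +41.6 kb (2.36 and 2.88) weak DHS were in the male lists alone.

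Scd1 (chr19:44468941-44482199, minus strand) had 7 regions, 5 of them in all 4 lists. Its start site had a moderate DHS, with a fold enrichment of 4.43 and 4.27 in males and females of B6 against 3.82 and 4.07 in CAST. A far stronger DHS at +18.96 kb (chr19:44462482-44463747, intergenic, beyond the 3′ end) had 10.4, 7.89, 12.04 and 9.57, with percentiles from 96.0 to 97.0. At +27.5 kb a DHS had 6.95, 3.75, 6.68 and 6.40, with female B6 below the other 3 lists.

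Pnpla3 (chr15:83998246-84019942, plus strand) had 5 regions, 4 of them in all 4 lists. The DHS at −11.6 kb (chr15:83986171-83987082, intergenic) was the most enriched of all 88 regions, at 19.7 (male) and 13.6 (female) in B6 and 21.9 (male) and 17.1 (female) in CAST, with percentiles of 99.1, 98.2, 99.4 and 98.3. The DHS over the start site had 8.04, 7.97, 10.1 and 8.92, and here female B6 was level with male B6. At +29.0 kb, in an intron of the neighbour Samm50 (chr15:84026904-84027590), the values were 5.88, 4.44, 8.23 and 9.38, both CAST lists above both B6 lists.

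For the comparison of the sexes, fold enrichments were divided, logged and centred on the median over the regions in all 4 lists, because the male lists were higher at the median, by 1.34 fold in B6 and 1.2 fold in CAST. The median log2 ratio of male to female was −0.01 in B6 (52 regions, from −0.63 to 0.47) and −0.01 in CAST (57 regions, from −0.60 to 0.58), and over all regions it was −0.02 and −0.01. With 1.5 fold as the limit, 0 of 52 regions were higher in males in B6, which allows up to 5.77%, and 2 were higher in females, against 2.25% and 3.14% of all regions. These 2 were weak DHS, Elovl6 at +117.6 kb (2.45 in males, 2.81 in females) and Me1 at +15.5 kb (2.46 and 2.81). In CAST, 0 of 57 were higher in males and 1 in females, against 3.03% and 2.87% of all regions. The shares in both strains are thus near or below those of all regions. The region in CAST was Acly at +41.7 kb (4.24 in males, 5.35 in females). Over the 47 regions in all 4 lists, 0 passed the limit in the same direction in both strains, either for males (0.35% of all regions) or for females (0.115%). This count of 0 allows a share of up to 6.38%, so a small number of sex-dependent regions could not have been seen here.

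For the comparison of the strains, the median log2 ratio of CAST to B6 was again near 0, at 0.01 in males (60 regions, from −0.70 to 1.35) and −0.03 in females (47 regions, from −0.56 to 0.83). In males 4 of 60 regions were higher in CAST by 1.5 fold and 2 in B6, against 6.54% and 4.56% of all regions, and in females 2 of 47 were higher in CAST and 0 in B6, against 4.99% and 3.41%. These shares are near those of all regions. The 4 in males were the intronic DHS of Elovl6 at +26.2 kb (log2 ratio 1.35) and Acly at +37.1 kb (1.28), the upstream DHS of Srebf1 at −2.09 kb (0.96) and Elovl6 at +117.6 kb (0.72). The 2 higher in B6 males were Me1 at +1.91 kb (3.67 in B6, 2.39 in CAST) and Acly at +12.7 kb. In females the 2 were Pnpla3 at +29.0 kb (0.83) and Elovl6 at +26.2 kb (0.80). The DHS of Elovl6 at +26.2 kb was thus the 1 region of 47 above the limit in both sexes, against 2.15% of all regions, and 0 were higher in B6 in both (0.868% of all regions).

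The fragment numbers at these summits set the precision of the strain differences. For Elovl6 at +26.2 kb the log2 ratio of CAST to B6 fragments, centred on the median ratio of the regions in all 4 lists (0.97 fold in males and 0.73 fold in females), was 1.67 in males (95% counting interval 1.27 to 2.08) and 0.83 in females (0.23 to 1.45). For Acly at +37.1 kb it was 1.70 in males (1.25 to 2.16) and 0.63 in females (0.02 to 1.25). At Srebf1 −2.09 kb it was 1.08 in males (0.75 to 1.42) and 0.29 in females, whose interval of −0.18 to 0.77 includes 0. For Pnpla3 at +29.0 kb it was 0.65 in males (0.38 to 0.92) and 0.99 in females (0.61 to 1.37). The intervals are Clopper-Pearson and hold no spread between mice. By fragments in place of fold enrichment, 5 of the 47 regions in all 4 lists were above the limit in CAST in both sexes (10.6%, Wilson interval 4.63% to 22.6%, against 4.58% of all regions), namely these 3 of Elovl6, Acly and Pnpla3 and the Thrsp DHS at −1.12 and −6.07 kb. The local background was also higher in CAST at the Thrsp DHS and, by less, at those of Acly and Elovl6. At Acly its log2 ratio of CAST to B6 was 0.39 in males and 0.26 in females. The Scd1 start site was the 1 region above it in B6 in both sexes (2.21% of all regions). Between the sexes 0 of 47 passed in both strains for males (0.508% of all regions) or for females (1.31%).

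**Figure D2:**
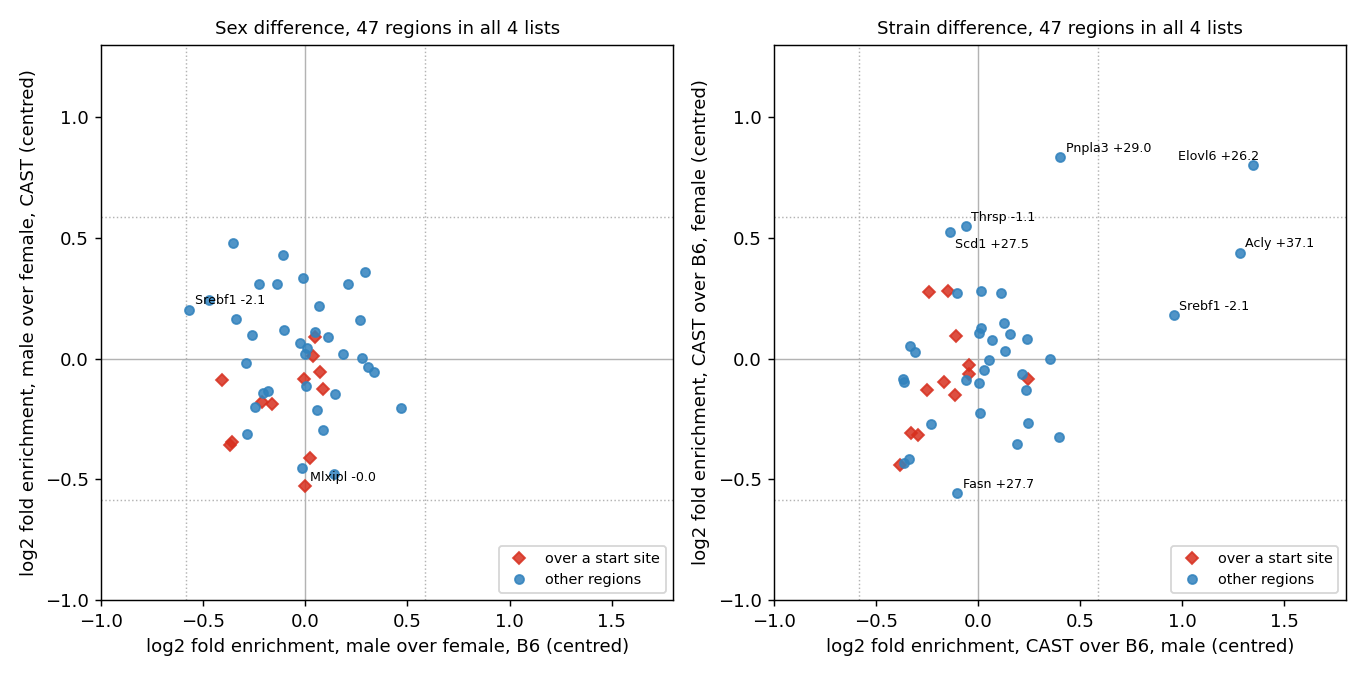
Centred log2 ratio of fold enrichment of male over female, B6 against CAST (left), and of CAST over B6, males against females (right), for the 47 regions in all 4 lists. Red diamonds are regions over a start site of the genes, blue points are other regions, dotted lines mark 1.5 fold. No point passes the limit on both axes at left, and at right Elovl6 at +26.2 kb does, at 1.35 and 0.80.

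At some start sites the result depended on the measure. By fold enrichment, 0 of the 12 start-site regions in all 4 lists passed 1.5 fold between sexes or strains, which allows a share of up to 25%, against 9.83% of the 8562 regions in all 4 lists over a start site of any gene. The Scd1 start site had log2 ratios of CAST to B6 of −0.29 in males and −0.32 in females, that of Acly −0.33 and −0.31 and that of Thrsp −0.39 and −0.44. By fragments, no count of these regions and no share over the start sites of all genes is given, so the next values are examples. Scd1 passed the limit by fragments, with −0.82 in males (counting interval −1.30 to −0.34) and −0.63 in females (−1.23 to −0.05), from 107 and 80 fragments in B6 males and females and 59.0 and 38 in those of CAST. Its fragments were higher in males, but by less than the median region, at which males had 1.91 times the fragments of females in B6 and 2.55 times in CAST. The centred ratio of male to female was −0.52 (−0.95 to −0.08) in B6 and −0.72 (−1.33 to −0.09) in CAST, the latter past the limit. The Pnpla3 start site had a ratio of male to female in B6 of −0.41 by fold enrichment and −0.88 (−1.14 to −0.62) by fragments, and had 257 fragments in male B6 and 247 in female B6. Its fragment ratio was also past the limit.

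The local background, by which fold enrichment is divided, differed between the strains at Thrsp and Scd1. It is the number of fragments expected at the summit from the surrounding sequence, given here over the genome-wide background of the list. At the Thrsp start site it was 3.19 and 2.07 in B6 males and females, and 5.76 and 4.42 in those of CAST, and at −1.12 kb 3.47, 2.17, 5.98 and 4.32. CAST was above B6 at the start site by 0.85 on the log2 scale in males and 1.10 in females, more than at 99.4% and 99.8% of the regions shared by those lists. The measure therefore decided the sign of the strain difference at this start site: the log2 ratio of CAST to B6 was −0.39 in males and −0.44 in females for fold enrichment, but 0.47 (counting interval 0.22 to 0.72) and 0.53 (0.12 to 0.94) for fragments at the summit. At −6.07 kb the fragments gave 1.03 (0.77 to 1.28) in males and 0.95 (0.53 to 1.38) in females, while fold enrichment gave 0.24 and 0.08. The 3 Thrsp regions lie within a few kb of each other and are not independent. Copy number of this locus in CAST and the mapping of CAST reads to it were not tested, and the fragment ratios here hold any effect of them. At the Scd1 start site the local background was 1.52 and 1.29 in B6 males and females, and 1.03 and 1.08 in those of CAST, a log2 ratio of CAST to B6 of −0.56 in males and −0.25 in females, below which lay 1.18% and 2.49% of the shared regions. Mlxipl had a high background, up to 3.98 in male B6 and 3.96 in male CAST, and Me1 a low one, at most 1.70.

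**Figure D3:**
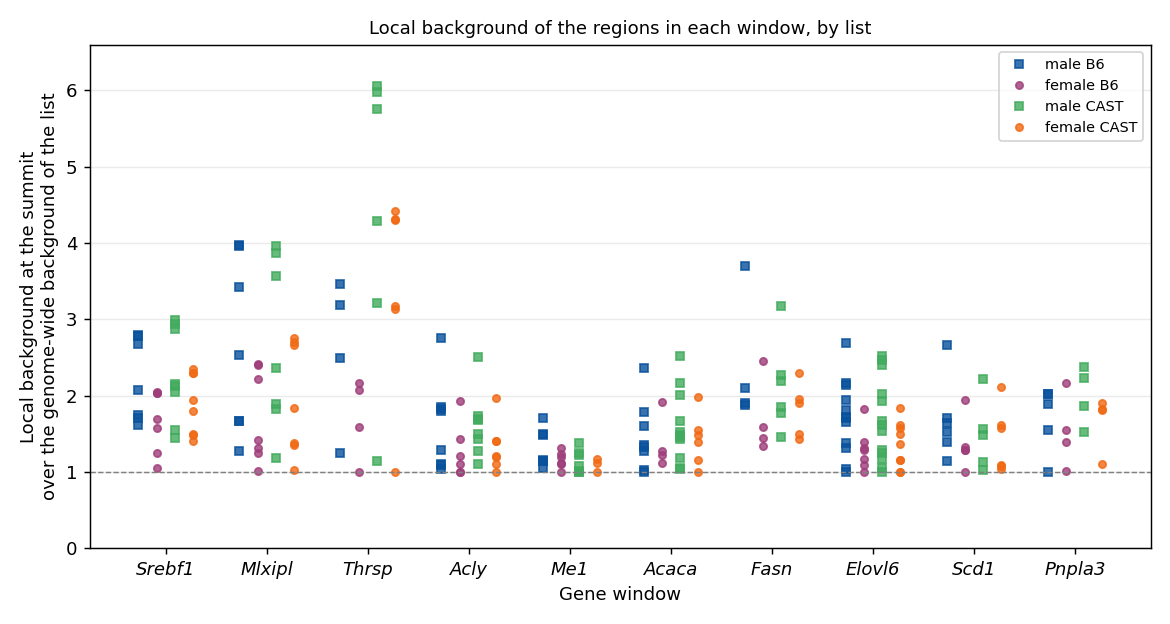
Local background at the summit over the genome-wide background of the list (y axis) for each region of each gene window, by list. The dashed line is the genome-wide background. The Thrsp regions of male CAST reach 6.06 and those of female CAST 4.42, against at most 3.47 in male B6 and 2.17 in female B6.

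The letters of the sterol regulatory element were in the promoters of several of the genes. TCACNCCAC, searched on both strands, was in a promoter of 3 of the 10 genes, with Mlxipl and Acaca among them (from 250 bases before to 50 after a coding start site), against 1.84% of 22232 genes. A second Acaca promoter, whose start site like the first had no DHS over it in any list, held it directly after that site. By promoter it was 5 of 25, of which 2 are overlapping windows of Mlxipl, against 1.15% of 46028. In the 300 bases around summits it was in 3 of 88 regions (3.41%), Srebf1 at −0.22 and −18.1 kb and the Mlxipl start site, against 1.15% of all regions. The E-box CACGTG was in 6 of 88 (6.82%, against 7.10%), the NF-Y box CCAAT in 37 (42.0%, against 35.5%), the C/EBP motif TTGCNNAA in 16 (18.2%, against 17.2%), the STAT5 motif TTCNNNGAA in 6 (6.82%, against 10.2%) and the HNF4A motif CAAAGTCCA in 3 (3.41%, against 1.68%). In promoters, the NF-Y box was in 7 of the 10 genes (against 47.0% of all genes) and the E-box in 1 (10.7%). The STAT5 motif was in 1 (11.8%), and the C/EBP and HNF4A motifs in 0 (15.1% and 0.724%). The exact paired E-box of the carbohydrate response element and the exact DR4 repeat of AGGTCA, bound by LXR and thyroid hormone receptors, had 0 matches in the 88 regions and were in 0.00583% and 0.0214% of all regions. A match is a string of letters, and a missing match says only that these letters were not in the window. The GC content also differed, with a median of 52.3% in the 88 regions and 49% in all regions.

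Shared DHS of the lipogenesis genes were narrower and less enriched at the median than those of all regions. Over the 47 regions in all 4 lists the median width was 685 bp and 551 bp in males and females of B6 against 682 bp and 537 bp in CAST, against 803, 646, 788 and 599 bp over all regions in 4 lists. Their median fold enrichment was 4.68 and 3.47 in males and females of B6 and 5.28 and 4.33 in CAST. Over all regions in 4 lists it was 5.35, 3.88, 5.80 and 4.66. The summits of the 4 lists spanned a median of 83 bp, against 91 bp. The widest DHS was the Pnpla3 start site, at 1617 bp in female B6.

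A list of 24 further genes of lipid synthesis served for comparison, with 148 regions in their windows. A DHS over a coding start site was in all 4 lists at 22 of them, among them Acacb, the mitochondrial form of acetyl-CoA carboxylase (7.23 (male) and 3.77 (female) in B6 and 7.60 (male) and 5.56 (female) in CAST), the citrate carrier Slc25a1 (6.33, 4.97, 5.03 and 3.85) and Dgat2, which forms triglyceride (11.4, 8.43, 12.7 and 12.9). The desaturase gene Scd2 had a DHS in the male lists alone (2.88 in B6 and 3.02 in CAST), and Cidec in none. Of the 148 regions, 74 (50.0%) were in all 4 lists, against 35.6% of all regions and 53.4% of the 88. With 1.5 fold as the limit in both strains, 0 of 74 were higher in males and 1 in females, against 0.35% and 0.115% of all regions. In both sexes 1 was higher in CAST and 1 in B6, against 2.15% and 0.868%. Counts of 0 and 1 are too small to be set apart from these shares.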

How the data were processed

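Peaks of 16 DNase-seq libraries of mouse liver were analysed as deposited, 1 list for each sex and strain. According to the methods of the study, the authors kept uniquely mapping Bowtie2 alignments, with mm9 as the genome for B6 and an mm9 carrying CAST variants for CAST (coordinates then converted back), merged the 4 libraries kept of a group, and called peaks with MACS2, leaving out blacklisted regions and peaks of only duplicated reads. Each deposited peak has a fold enrichment (a ratio of summit pileup to local background), a −log10 p-value, a −log10 q-value and a score that is 10 times the latter. The custom CAST genome, and any difference in mappability it brings, could change counts in CAST.

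Genes and start sites were taken from GENCODE M1 (NCBIM37, the same build as mm9) and sequences from its genome. Summit pileup and local background were recovered from fold enrichment and p-value, and 99.86% to 99.96% of pileups came out within 0.02 of a whole number. Peaks were joined at 1 bp overlap, each region took the strongest peak of each list, and percentiles are ranks of the −log10 q-value in a list. No test was run, as each group is 1 pooled list. Named regions are, for each gene, those over a start site, the strongest other region by mean percentile that was not within 2.5 kb of a start site of another gene, and those found in 1 sex of both strains, in 1 strain of both sexes, or past 1.5 fold; a few more were named after their values were seen, among them the Mlxipl DHS at +1.39 and +42.5 kb, Scd1 at +27.5 kb, Acly at −17.6 kb, Acaca at +43.7 kb and the further genes of lipid synthesis. The 10 genes, the motif and marker lists and the 24 further genes were chosen with earlier results of these data known. Joining and recovery were tested on simulated data. Analyses used Python 3.11.15 with numpy 2.4.6, scipy 1.17.1 and pandas 2.3.3. Alternatives were a stricter q-value, lists of equal size, 50% reciprocal overlap, joining within 500 bp, windows of 5 and 50 kb, no promoters of other genes, summit pileups (for the counts past 1.5 fold chosen after seeing the data), and no centring. Sequences are shown, and values of the 24 further genes given, for some genes only.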

Additional observations from a re-analysis of the deposited data

Results flagged for a closer look

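The DHS of Thrsp at −1.12 kb was the 1 region of 47 in all 4 lists at which the sex difference pointed in opposite directions in the strains with counting intervals that did not overlap. On the centred log2 scale, fold enrichment of male over female was 0.14 in B6 and −0.48 in CAST, a difference of 0.61. In summit fragments the ratio was 0.43 (counting interval 0.05 to 0.83) in B6 and −0.27 (−0.55 to 0.02) in CAST. The difference was not tested, since each group is 1 pooled list. At this DHS the local background was 3.47 in B6 and 5.98 in CAST in males and 2.17 and 4.32 in females, whereas at +17.5 kb of the same window it was 1.25 and 1.15 in males and 1 in both female lists. Its part in the result was not tested. Over all regions in 4 lists 2.62% met the same description. Opposite signs alone were seen at 23 of the 47 regions (48.9%), against 41.9% of all regions. No group held 4 samples with values of their own.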

How the results depend on the processing

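The share of regions in all 4 lists, and the shares common to sexes or strains, kept their values within counting error under windows of 5 or 50 kb, without promoters of other genes, at 50% reciprocal overlap and after joining within 500 bp. A stricter q-value, which leaves fewer peaks and removes more from the female lists, moved 5 results: the ratio of male to female peaks rose from 1.26 to 2 in B6 and from 1.21 to 1.93 in CAST, the share in all 4 lists went from 53.4% to 35.7%, and the share common to the sexes from 74.3% to 50% in B6 and from 72.2% to 51.9% in CAST. The share of all regions at this q-value is not given, so whether the excess over all regions held there is not known. Lists of equal size gave 80.9% in place of 72.2% common to the sexes in CAST. With them the ratio of male to female peaks was 1.04 in B6 and 0.98 in CAST. Without centring the medians were 0.42 for sex in B6, 0.26 for sex in CAST and 0.22 for strain in females. With summit fragments in place of fold enrichment, an alternative chosen after seeing the data, the regions past 1.5 fold in both sexes numbered 5 in place of 1 for CAST and 1 in place of 0 for B6, and those past it in both strains stayed at 0 for males and for females. No paired analysis was possible because the deposited lists pool the 4 libraries of a group and carry no replicate numbers. Leaving out single replicates was likewise not possible with pooled lists.
The female lists held fewer DHS, and a DHS absent from a list may lie under its threshold. No spread between mice is known for any value.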
